A study of Mus musculus with 20 samples.

Results

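The odorant receptor genes of mouse chromosome 1 were described in cells of the olfactory mucosa sorted by a reporter of neuronal activity. Members were the gene probe sets whose row identifier places them on chromosome 1 and whose symbol is Olfr followed by digits. The rule left out Olfr16 and Olfr220, and 25 of the 27 matching probe sets remained, out of 1080 odorant receptors and 22206 gene probe sets on the array. The rule itself used position and name only and no measured value, although it was set with earlier results of these data known.

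Cells came from 30 mice of both sexes, 7 to 12 weeks old, carrying an S100a5-tauGFP reporter, in which green fluorescent protein (GFP) is made where S100a5 is expressed. S100a5 encodes a calcium-binding protein that olfactory sensory neurons raise with activity, and all 4 groups carried the reporter. Each mouse sat alone in a clean air chamber at 3.1 L/min for 40 h, and after 26 h it received 10 s pulses every 20 min of filtered air (vehicle) or of odor. The sample labels name an artificial cigarette smoke odor, whereas the design text of the series names bourgeonal, and the labels were followed. Mucosa of 3 mice was pooled and sorted by flow cytometry into GFP+ and GFP- cells, giving 5 vehicle and 5 odor pools and 4 groups of 5 arrays. A pool is the replicate, so the spread between single mice was not seen.

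An olfactory sensory neuron expresses 1 allele of 1 odorant receptor gene, which sets the odorants it responds to and where in the olfactory bulb its axon ends. The receptor is a G protein-coupled receptor in the cilia that signals through the olfactory G protein, adenylyl cyclase and a cyclic nucleotide-gated channel. Receptor genes lie in clusters of related copies, and each neuron chooses among them. Each of these 25 genes therefore marks its own set of neurons, and in sorted bulk RNA fewer neurons of a receptor and less receptor RNA per neuron cannot be told apart.

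In order of their RefSeq starts the receptors formed 2 clusters, split wherever neighbouring starts lay more than 1 Mb apart. The first held 8 genes, from Olfr1416 to Olfr12, of which 3 were of family MOR103 and 5 of family MOR208. The second held 17, from Olfr1408 to Olfr414, with 8 genes of MOR267, 6 of MOR105, 2 of MOR123 and 1 of MOR103. Between both clusters lay 1175 other RefSeq genes.

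Values are log2 signals, on which 1 unit is a 2-fold difference. Background on each array, taken as the median of 23 background control rows, ran from 5.14 to 6.34. Olfr427 and Olfr248 were at or below it on all 20 arrays and Olfr420 on 17, so their values carry little, whereas 12 receptors were above it on every array. The arrays of replicate 5, 1 in each group, were brighter, with gene medians of 7.03 to 7.46 against 6.06 to 6.39 on the other 16. Receptors were brightest on that array in 18 to 23 of 25 cases, depending on the group. The vehicle GFP- array of pool 1 stood apart, correlating at 0.895 with its group where all others reached at least 0.941.

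Sorting was tested first in vehicle pools, asking which receptors differed between GFP+ and GFP- cells in clean air. Of the 25 receptors 8 were higher in GFP+ cells and 3 were lower, and 14 did not pass (limma, adjusted p under 0.05). Of all gene probe sets 9.11% passed, 2.26% higher and 6.86% lower, and of the 1055 other odorant receptors 33.7% and 15.8%. In either direction 44% of the chromosome 1 receptors passed, far above the 9.11% of genes at large and near the 49.6% of the other receptors. The 3 lower ones were Olfr1406, Olfr231 and Olfr417, and Olfr424 led those that were higher. The median change over the 25 was 0.60, against 0.51 for the other receptors and 0.09 for all probe sets.

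In odor pools 6 receptors were higher and the same 3 were lower, where 7.89% of all probe sets passed, 2.07% higher and 5.82% lower. Of the other receptors 30.6% and 17.3% did. The median change was 0.68, against 0.39 for the other receptors and 0.08 for all probe sets. All 6 receptors that were higher in odor pools were also higher in vehicle pools. Those called in vehicle pools alone were Olfr418 and Olfr12. The vehicle and odor pools hold different mice, although 1 fit gave both tests their estimate of the spread. The sign was the same in both for 23 of 25 receptors, and Olfr419 and Olfr414, both uncalled, were the exceptions.

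**Figure D1:**
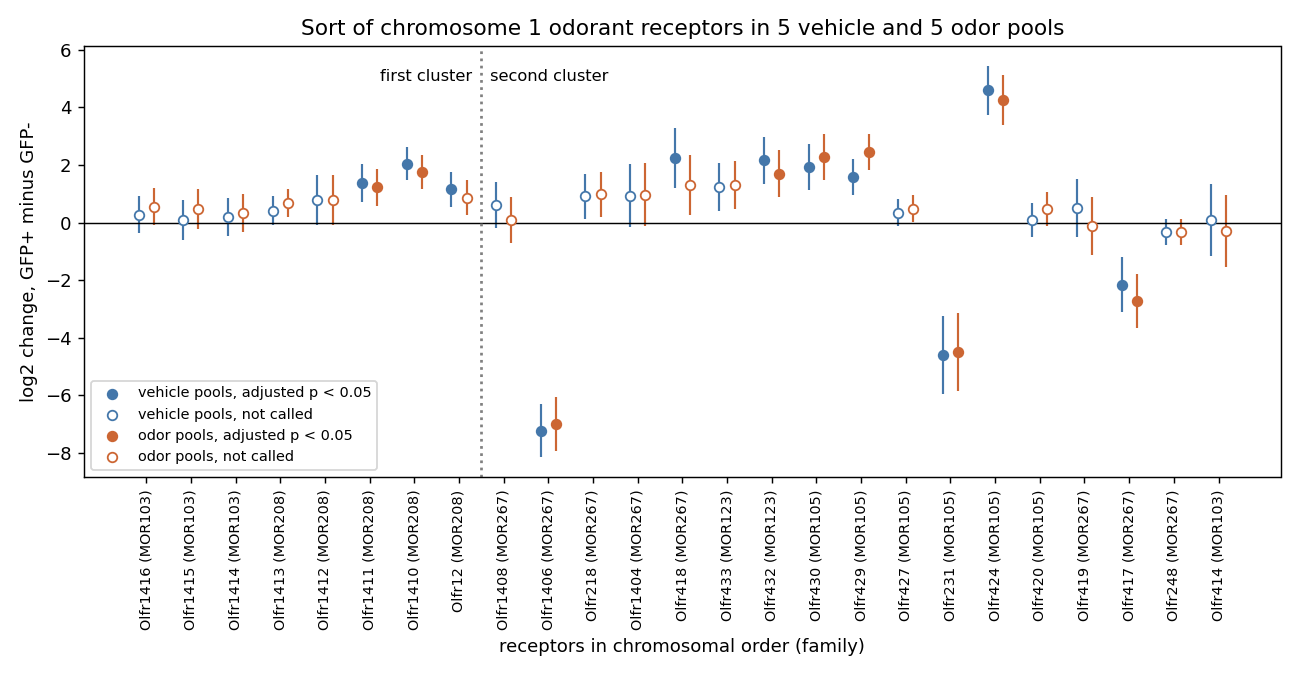
Log2 change from GFP- to GFP+ cells of each chromosome 1 receptor in vehicle pools (blue) and odor pools (orange), with 95% confidence intervals over 5 pools each; filled points passed the adjusted p threshold of 0.05. Receptors stand in chromosomal order with their family in brackets. Olfr1406 lies near -7, Olfr231 near -4.5 and Olfr424 above 4, with mostly small positive changes between them.

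Olfr1406 showed the largest fall. In vehicle pools 1 to 5 its GFP- signals were 10.94, 11.25, 10.09, 11.35 and 13.04, and its GFP+ signals were 4.53, 3.15, 3.78, 3.54 and 5.53. In odor pools the GFP- signals were 11.60, 9.64, 11.53, 10.61 and 13.27, and the GFP+ signals 5.66, 4.13, 3.89, 3.67 and 4.34. Every GFP- array was high and every GFP+ array low, with a wide gap between them. All 5 vehicle GFP+ arrays and 4 of 5 odor GFP+ arrays were at or below background, so that the fold is a lower bound. With each GFP+ array raised to at least its own background, the receptor was at least 51.7-fold lower in vehicle pools and at least 53.8-fold lower in odor pools. The fitted changes were -7.23 (SE 0.43, limma adjusted p = 1.14e-07) and -6.99 (SE 0.43, limma adjusted p = 1.9e-07).

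The neighbours of Olfr1406 did not share this. It lies in a run of MOR267 genes, with only the pseudogene Olfr1407-ps1 between it and Olfr1408, no RefSeq gene between it and Olfr218, and then Olfr1404. Olfr1408 had changes of 0.60 (SE 0.37) and 0.08 (SE 0.37) in vehicle and odor pools, Olfr218 of 0.91 and 0.98 (SE 0.36 each), and Olfr1404 of 0.94 and 0.97 (SE 0.50 each), none of them past the threshold. Olfr1408 had GFP- signals of 8.75 to 11.64 (median 9.41) and GFP+ signals of 8.71 to 11.46 (median 10.57) in vehicle pools, and these overlapped throughout. Its small odor change turned to -0.02 under quantile normalization.

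To set these neighbours side by side, the 250 bases upstream of the RefSeq start are shown for Olfr1408, Olfr1406 and Olfr1404, 5′ to 3′ on the gene's strand, from the RefSeq promoter table of GRCm38.p6. They were chosen because Olfr1406 fell and the others did not pass, and all 3 windows lie ahead of the start codon, whereas the RefSeq model of Olfr218 begins at it. Capitals mark matches to TAATNA, a core recognised by homeodomain factors, on either strand. They lie at chr1:173137335-173137584 (minus strand), chr1:173184505-173184754 (minus strand) and chr1:173215357-173215606 (plus strand).
Olfr1408: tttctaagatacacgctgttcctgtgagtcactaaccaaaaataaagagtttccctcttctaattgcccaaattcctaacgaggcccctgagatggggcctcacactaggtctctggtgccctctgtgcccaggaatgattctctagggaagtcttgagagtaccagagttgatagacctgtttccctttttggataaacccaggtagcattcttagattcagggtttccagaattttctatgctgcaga
Olfr1406: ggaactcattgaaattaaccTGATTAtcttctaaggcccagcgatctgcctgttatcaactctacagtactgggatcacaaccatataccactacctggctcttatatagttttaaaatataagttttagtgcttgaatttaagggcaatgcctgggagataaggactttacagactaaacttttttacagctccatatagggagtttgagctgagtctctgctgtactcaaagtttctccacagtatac
Olfr1404: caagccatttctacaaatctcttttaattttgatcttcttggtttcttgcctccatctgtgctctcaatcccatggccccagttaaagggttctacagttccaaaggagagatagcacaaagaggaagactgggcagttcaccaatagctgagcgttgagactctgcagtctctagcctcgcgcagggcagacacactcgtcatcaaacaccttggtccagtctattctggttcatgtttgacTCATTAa
Olfr1406 and Olfr1404 hold 1 match each and Olfr1408 none, so a match stood both ahead of the receptor that fell and ahead of 1 that did not pass. The motif occurred in 24.3% of all 32851 promoter windows and in 66.8% of the 259 odorant receptor windows that do not begin at a start codon. Of the 12 such windows of chromosome 1 receptors 6 held it. The RefSeq gene of Olfr1408 spans 7135 bases, against 1063 and 1034 for Olfr1406 and Olfr1404, so the windows may cover unlike regions. Whether they hold the promoters was not tested. A match is a run of letters and does not show that a factor binds there.

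Olfr231 was the next lowest. In vehicle pools 1 to 5 its GFP- signals were 7.49, 10.54, 8.57, 9.23 and 12.49, and its GFP+ signals 4.25, 5.76, 3.98, 6.06 and 5.36. In odor pools the GFP- signals were 9.96, 8.44, 9.62, 9.12 and 11.60, and the GFP+ signals 3.41, 4.79, 5.65, 7.01 and 5.50. The fractions did not overlap in either condition, although odor pool 4 had a GFP+ signal clearly above background. The changes were -4.58 (SE 0.63, limma adjusted p = 0.000229) and -4.48 (SE 0.63, limma adjusted p = 0.000321). In each condition 3 of 5 GFP+ arrays were at or below background, which gives at least 14.8-fold and at least 14.3-fold lower signals.

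Directly beside it, with no RefSeq gene between them and in the same family, MOR105, Olfr424 went the other way. Its vehicle GFP- signals were 7.33, 8.83, 7.91, 8.77 and 9.87, and its GFP+ signals 13.83, 12.85, 13.02, 11.99 and 13.97. In odor pools the GFP- signals were 9.76, 7.78, 9.04, 8.05 and 10.02, and the GFP+ signals 13.56, 12.63, 13.36, 13.12 and 13.30. All GFP+ arrays lay above all GFP- arrays. The changes were 4.59 (SE 0.40, limma adjusted p = 4.28e-06) and 4.26 (SE 0.40, limma adjusted p = 8.98e-06), or 24.1-fold and 19.2-fold. Ordered from the highest change, Olfr424 was number 9 of 1080 receptors in vehicle pools and number 15 in odor pools.

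**Figure D2:**
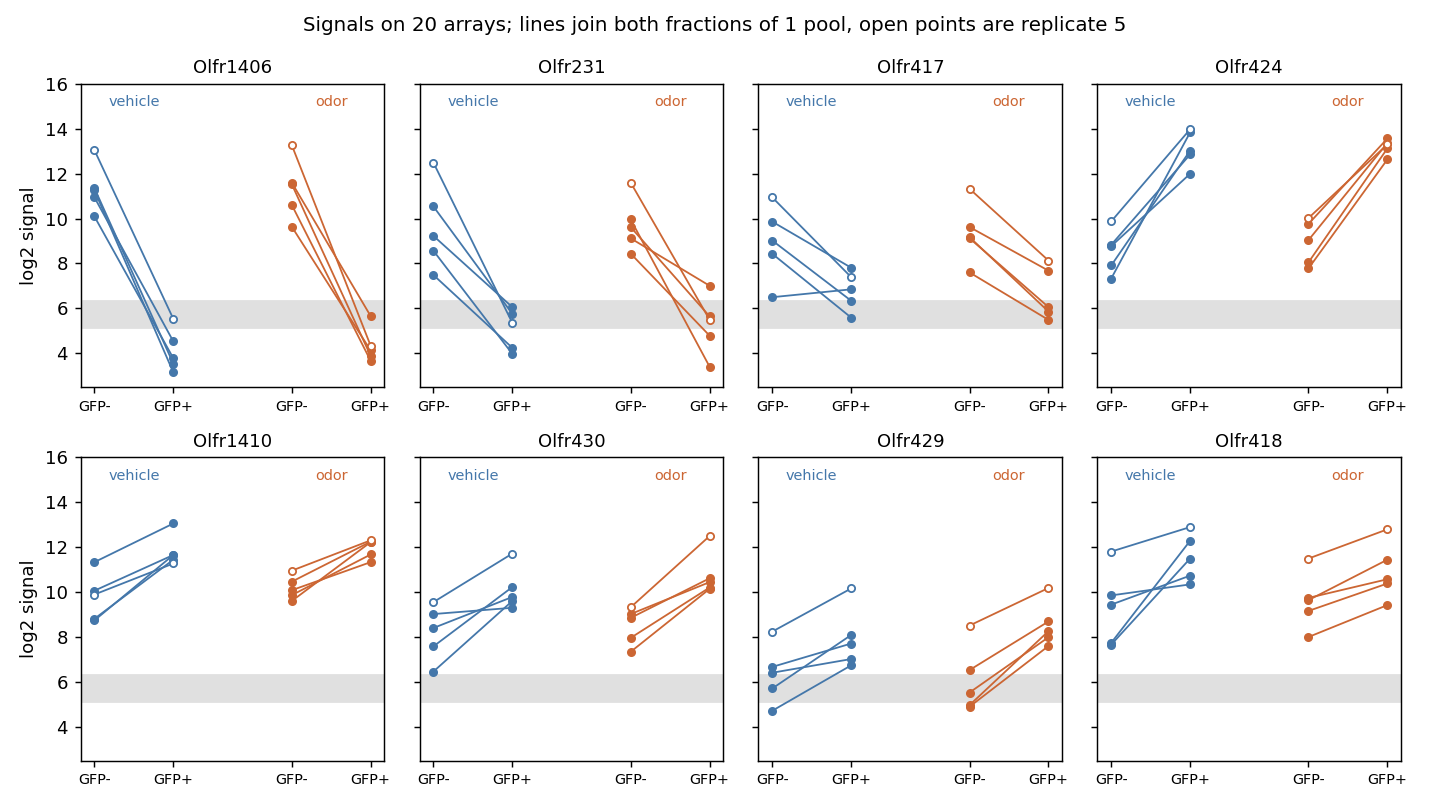
Log2 signals of 8 chromosome 1 receptors in GFP- and GFP+ cells, with 1 line per pool joining its fractions (blue vehicle, orange odor, 5 pools each; open points are replicate 5) and the range of background over arrays in grey. In all pools Olfr1406 drops into or below the grey band, and so does Olfr231 but for odor pool 4, where it stays above. Olfr417 falls in all pools but vehicle pool 1, and the other 5 are higher in GFP+ cells in all pools.

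Olfr417, the third receptor lower in GFP+ cells, belongs to MOR267 like Olfr1406 but lies near the far end of the second cluster. Its vehicle GFP- signals were 6.50, 9.02, 8.43, 9.86 and 10.94, and its GFP+ signals 6.85, 6.34, 5.59, 7.81 and 7.39. In odor pools they were 9.12, 7.60, 9.17, 9.62 and 11.32 in GFP- cells and 6.06, 5.49, 5.86, 7.68 and 8.13 in GFP+ cells. The fractions overlapped in both conditions, and 9 of 10 pools were lower in GFP+ cells, vehicle pool 1 being the exception with a difference of 0.36. The changes were -2.15 (SE 0.44, limma adjusted p = 0.00505) and -2.72 (SE 0.44, limma adjusted p = 0.00095), or 4.45-fold and 6.60-fold lower. With the pool ignored as a block the vehicle call was lost (adjusted p = 0.141).

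Within MOR105, Olfr430 and Olfr429 rose beside Olfr424. The GFP+ signals of Olfr430 were 9.61, 9.79, 10.23, 9.31 and 11.72 in vehicle pools, against GFP- signals of 6.47, 8.41, 7.59, 9.03 and 9.56. In odor pools they were 10.45, 10.21, 10.62, 10.15 and 12.50 against 9.03, 7.97, 8.86, 7.35 and 9.33. The fractions of Olfr430 overlapped in vehicle pools, where the GFP+ array of pool 4 lay below the GFP- array of pool 5, and stood apart in odor pools. Its changes were 1.92 (SE 0.37, limma adjusted p = 0.00338) and 2.28 (SE 0.37, limma adjusted p = 0.00102). With the pool ignored its vehicle call was lost (adjusted p = 0.0707).

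Olfr429 had vehicle GFP+ signals of 6.75, 7.03, 8.10, 7.72 and 10.17 and GFP- signals of 4.73, 6.42, 5.72, 6.68 and 8.25. In odor pools its GFP+ signals were 7.61, 8.27, 8.0, 8.70 and 10.19 and its GFP- signals 4.91, 4.98, 5.54, 6.54 and 8.52. In each condition the bright GFP- array of pool 5 reached into the GFP+ range, yet every pool was higher in GFP+ cells. Of its GFP- arrays 1 in vehicle and 2 in odor pools were at or below background. The changes were 1.59 (SE 0.29, limma adjusted p = 0.00212) and 2.46 (SE 0.29, limma adjusted p = 7.41e-05), and both calls were lost with the pool ignored (adjusted p = 0.46 and 0.0788). MOR105 thus held 3 higher and 1 lower receptor of 6 in either condition, and its other receptors, near background, did not pass. Olfr427 had fitted changes of 0.35 and 0.48 and Olfr420 of 0.09 and 0.47.

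Olfr432 and Olfr433, the adjacent MOR123 genes, were dim in GFP- cells. Olfr432 had vehicle GFP- signals of 3.89, 4.88, 4.80, 4.55 and 6.41, of which 4 were at or below background, and GFP+ signals of 7.89, 6.77, 6.10, 6.03 and 8.59. In odor pools its GFP- signals were 5.16, 5.28, 4.82, 4.55 and 6.63, with 3 at or below background, and its GFP+ signals 7.27, 5.63, 7.44, 6.34 and 8.23. All 10 pools were higher in GFP+ cells, although the pool 5 GFP- array overlapped the GFP+ ones. The changes were 2.17 (SE 0.38, limma adjusted p = 0.00162) and 1.69 (SE 0.38, limma adjusted p = 0.011), which as bounds are at least 2.69-fold and at least 2.45-fold. The odor call was lost without odor pool 1 (change 1.59, adjusted p = 0.0541) or odor pool 3 (1.46, adjusted p = 0.0682), without both pools numbered 5 (1.72, adjusted p = 0.0651) and with the pool ignored (adjusted p = 0.139).

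For Olfr433, 3 of 5 vehicle and all 5 odor GFP- arrays were at or below background. With those raised to their own background, its group means were 1.77-fold and 1.53-fold higher in GFP+ cells. In odor pools 2 of 5 GFP+ arrays were at or below background as well. Its fitted changes of 1.23 and 1.31 (SE 0.39 each) rest on those dim values and did not pass (limma adjusted p = 0.0707 and 0.0605). It passed in both conditions after quantile normalization (adjusted p = 0.0266 and 0.0243), after centring of arrays (adjusted p = 0.0257 and 0.0254) and without vehicle pool 1, where its vehicle difference was -0.28. Without that pool its vehicle change was 1.61 (adjusted p = 0.00855) and its odor call had an adjusted p of 0.0171. It also passed in odor pools without vehicle pool 2 (adjusted p = 0.0411).

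Olfr418 of MOR267 was higher in vehicle pools, with GFP+ signals of 12.29, 10.74, 11.50, 10.35 and 12.90 against GFP- signals of 7.75, 9.45, 7.67, 9.86 and 11.81. In odor pools its GFP+ signals were 10.58, 9.43, 11.45, 10.39 and 12.80 and its GFP- signals 9.75, 8.01, 9.65, 9.17 and 11.50. The differences within vehicle pools were uneven, from 0.49 in pool 4 to 4.54 in pool 1, whereas those of odor pools ran from 0.83 to 1.80. The changes were 2.25 (SE 0.49, limma adjusted p = 0.00793) and 1.31 (SE 0.49, limma adjusted p = 0.162). The odor change passed when vehicle pool 1 was left out, which changes the shared spread and not the value (adjusted p = 0.0345), and the vehicle call was lost with the pool ignored (adjusted p = 0.138). The difference between both sorts was -0.93 (95% interval -2.42 to 0.55), so passing in vehicle pools alone does not show that the conditions differed.

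In the first cluster all 8 receptors had positive changes in both conditions, and those that passed were all MOR208. Olfr1410 had vehicle GFP+ signals of 11.66, 11.66, 11.45, 13.06 and 11.28 and GFP- signals of 8.75, 10.07, 8.82, 11.34 and 9.90. In odor pools its GFP+ signals were 11.34, 11.68, 12.23, 12.25 and 12.31, all above its GFP- signals of 10.09, 9.87, 9.61, 10.47 and 10.96. In vehicle pools only the GFP- array of pool 4 reached into the GFP+ range. The changes were 2.05 (SE 0.27, limma adjusted p = 0.000173) and 1.76 (SE 0.27, limma adjusted p = 0.000685), or 4.13-fold and 3.40-fold, and all 10 pools were higher in GFP+ cells.

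Beside Olfr1410, Olfr1411 rose by 1.36 (SE 0.30, limma adjusted p = 0.00945) and 1.22 (SE 0.30, limma adjusted p = 0.0219), in 9 of 10 pools. Its signals were low, from 5.48 to 8.85 in vehicle GFP+ cells (median 7.02) and from 4.80 to 6.75 in GFP- cells (median 5.55), and these ranges overlapped. The vehicle call was lost without vehicle pool 3 (change 1.11, adjusted p = 0.0556) or vehicle pool 5 (1.18, adjusted p = 0.0586), without both pools numbered 5 (adjusted p = 0.0842) and with the pool ignored (adjusted p = 0.367). The odor call was lost when any 1 odor pool was left out (changes from 1.12 to 1.30, adjusted p from 0.0514 to 0.0978), without both pools numbered 5 (adjusted p = 0.109) and with the pool ignored (adjusted p = 0.599).

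Olfr12, on the far side of Olfr1410, had changes of 1.16 (SE 0.28, limma adjusted p = 0.0164) in vehicle pools and of 0.87 (SE 0.28, limma adjusted p = 0.0919) in odor pools. All 10 pools were higher in GFP+ cells, with differences of 0.50 to 2.62 in vehicle and 0.61 to 1.33 in odor pools, and the fractions overlapped in both. The vehicle call was lost without vehicle pool 3 (change 1.13, adjusted p = 0.0637) and with the pool ignored (adjusted p = 0.668). The odor change passed without vehicle pool 1 (0.87, adjusted p = 0.00801) and after centring (1.08, adjusted p = 0.0345). The test of the difference between both sorts gave -0.29 (95% interval -1.15 to 0.56).

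Of the remaining MOR208 genes, Olfr1412 was well above background on all arrays and did not pass. Its vehicle GFP+ signals were 12.02, 11.67, 12.19, 11.50 and 13.10 and its GFP- signals 9.13, 11.13, 11.40, 12.37 and 12.58, with changes of 0.77 and 0.79 (SE 0.40 each). The vehicle GFP- array of pool 1 lay far below the others. Olfr1413, near background throughout at 4.91 to 6.39, had changes of 0.42 and 0.68 (SE 0.23 each), the second of which passed after centring (0.89, adjusted p = 0.0319).

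The 4 MOR103 receptors did not pass in either condition. Olfr1416, Olfr1415 and Olfr1414 lie side by side at the start of the first cluster and had vehicle changes of 0.27, 0.08 and 0.18 and odor changes of 0.56, 0.48 and 0.32. Olfr414, at the end of the second cluster, had 0.09 and -0.29. The intervals of Olfr414 ran from -1.16 to 1.34 and from -1.54 to 0.95, so that a 2-fold change in at least 1 direction lay inside each. It varied widely from pool to pool, with vehicle differences of 2.31, -1.53, 1.85, -1.27 and -0.90 (SD 1.84).

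Olfr419 of MOR267, bright at 8.47 to 13.29, showed the same unevenness. Its vehicle differences were 3.17, -0.46, 1.33, -0.60 and -0.99 and its odor differences 0.05, -0.23, 0.16, -0.13 and -0.46. The means of 0.49 and -0.12 (SE 0.47 each) had intervals that included 0, and the second was 0.09 after centring. Olfr248, the last MOR267 gene, was at background on all arrays, with signals of 2.97 to 4.03 and fitted changes of -0.33 in both conditions. By family, MOR267 therefore had 1 higher and 2 lower receptors of 8 in vehicle pools and 0 higher and 2 lower in odor pools, with changes from -7.23 to 2.25 and from -6.99 to 1.31.

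Vehicle pool 1 set apart many of these values. The median difference over the 25 receptors was 2.02 there, against 0.20 to 1.00 in vehicle pools 2 to 5 and 0.46 to 1.04 in odor pools. It was the vehicle pool with the highest difference for 14 of 25 receptors. Its GFP- array was also low in the 14 markers of mature sensory neurons, whose mean level ran from 14.91 to 16.27 in vehicle GFP- cells and whose mean difference was 1.64 in that pool, against -0.04 to 0.73 in the other vehicle pools. Its part in the receptor changes was not tested, and without it 9 receptors were higher and 3 lower in vehicle pools. In odor pools, where its absence changes the shared estimate of the spread and no change itself, 9 were higher and 3 lower.

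**Figure D3:**
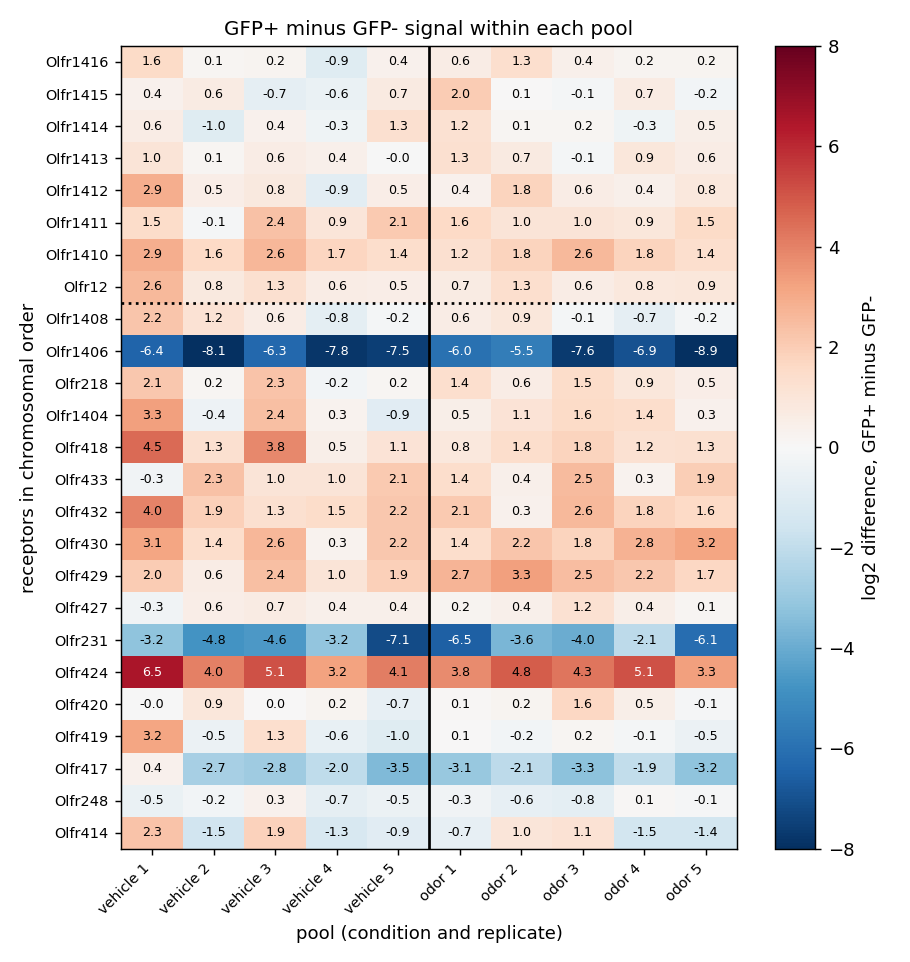
GFP+ minus GFP- log2 signal of each chromosome 1 receptor in each of the 10 pools, in chromosomal order (rows) with the boundary of the clusters dotted; red is higher and blue lower in GFP+ cells, and the number is the difference. The rows of Olfr1406 and Olfr231 are blue and the row of Olfr424 is red in all 10 pools, and the column of vehicle pool 1 is redder than the others.

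Fully separate fractions were rare. In vehicle pools 1 receptor, Olfr424, had all GFP+ above all GFP- arrays and 2, Olfr1406 and Olfr231, all below, where 0.829% and 3.91% of all probe sets did so and 13.8% and 9.29% of other odorant receptors. In odor pools 3 receptors, Olfr424, Olfr1410 and Olfr430, lay wholly above and the same 2 wholly below, against 1.04% and 4.02% of all probe sets and 14.7% and 12% of other odorant receptors. Pool by pool the direction was steadier. The GFP+ cells of all 10 pools exceeded their GFP- cells for Olfr1410, Olfr12, Olfr418, Olfr432, Olfr430, Olfr429 and Olfr424, and those of 0 pools for Olfr1406 and Olfr231. Such agreement was not counted over all probe sets or the other receptors, so it does not set these receptors apart from them.

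**Figure D4:**
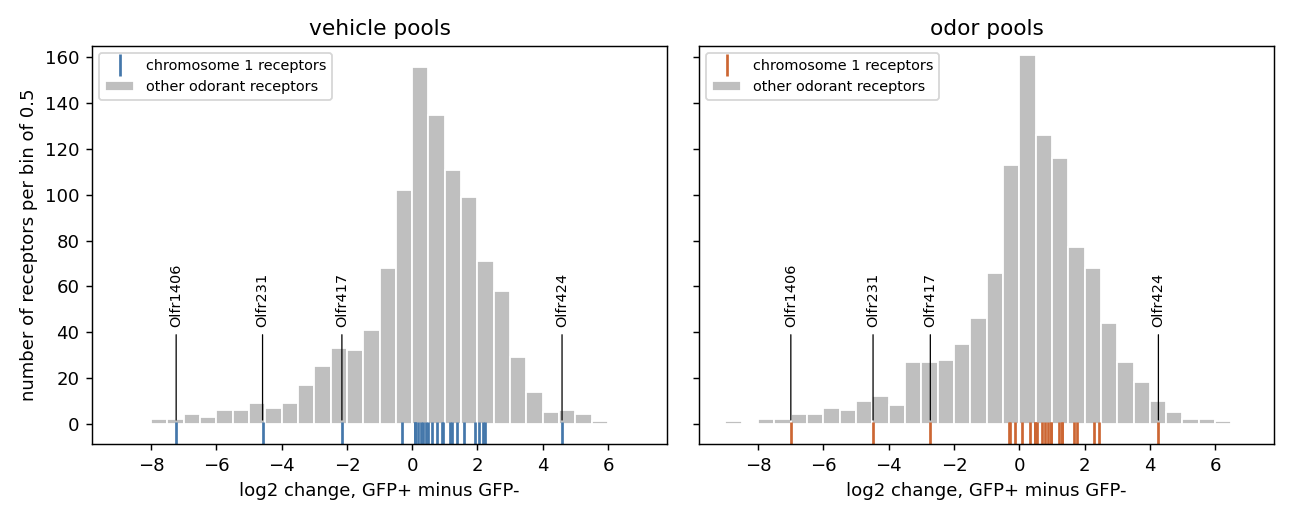
Number of the 1055 other odorant receptors (grey, bins of 0.5) by log2 change from GFP- to GFP+ cells in vehicle and odor pools, with each of the 25 chromosome 1 receptors as a coloured mark. Olfr1406 and Olfr231 lie in the thin lower tail, Olfr417 on its shoulder and Olfr424 in the upper tail, and the other 21 lie in the bulk.

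The fractions differed in cell types as well, and the labelled cells were checked against markers. Mature sensory neuron markers were bright in all groups and 0 of 14 passed in either sort, with median changes of 0.52 and 0.49. Omp, the olfactory marker protein, had changes of 0.22 and 0.12 (limma adjusted p = 0.717 and 0.901). All 8 measured white blood cell markers were lower in GFP+ cells in both conditions (medians -8.80 and -8.42). Their mean levels were 14.79 to 15.34 in vehicle GFP- cells. In vehicle GFP+ cells they were 6.34 to 6.89, where background ran from 5.29 to 6.34. Of the immature neuron markers 4 of 8 were lower in both, among them Gng8 (-4.37 in vehicle pools). Tubb3, Crmp1 and Ncam1 of that list had positive changes in both (0.413, 0.135 and 0.575 in vehicle pools), and Stmn2 a negative one (-0.736). None of these passed. Lower in both were also 3 of 4 progenitor markers and 4 of 4 microvillar markers. Sustentacular markers were lower for 2 of 5 in vehicle and 1 of 5 in odor pools. The part of these other cell types in the receptor changes was not tested.

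S100a5, whose locus drives the reporter, was higher in GFP+ cells by 1.30 (SE 0.36, limma adjusted p = 0.0368) and 2.15 (SE 0.36, limma adjusted p = 0.00131). The vehicle call was lost without vehicle pool 2 (0.99, adjusted p = 0.105), pool 3 (1.14, adjusted p = 0.158) or pool 5 (1.31, adjusted p = 0.107), without odor pool 1 (adjusted p = 0.0531) or 3 (adjusted p = 0.0557), without both pools numbered 5 (adjusted p = 0.123) and after quantile normalization (adjusted p = 0.0708). Of 19 measured genes for receptor signalling and trafficking 0 were higher and 1 was lower in each condition. That gene was Grk3, a kinase that desensitises odorant receptors, at -1.03 (SE 0.22) and -0.79 (SE 0.22). Pde1c, a phosphodiesterase that degrades cyclic nucleotides, had 0.98 (SE 0.32) in vehicle pools and did not pass.

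Of 15 genes for receptor gene choice, 1 was lower in vehicle pools, Lbr, the lamin B receptor that tethers heterochromatin, at -2.18 (SE 0.21). In odor pools it was joined by Smchd1, a chromatin protein, at -1.51 (SE 0.34). Lhx2 and the Ebf factors, which bind at receptor genes, did not pass. Of 11 measured activity-associated genes 5 were higher in vehicle pools and 3 in odor pools, with Pcp4l1 at 2.12 and 1.79 (SE 0.32 each). Lower in both was 1, the cell cycle inhibitor Cdkn1b at -3.60 and -3.37 (SE 0.44 each).

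Whether the odor changed these receptors was asked in 3 ways: on the enrichment in GFP+ cells, within GFP+ cells and within GFP- cells. In each, 0 of the 25 receptors passed, and 0% of all 22206 probe sets did (limma). Without adjustment, and without a block, 0 chromosome 1 receptors had a p under 0.05 in each, against 1.21%, 0.275% and 0.135% of all probe sets and 44, 15 and 3 of the 1055 other receptors. All 3 comparisons use the same pools, so they are given side by side and are not independent.

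For enrichment the largest differences were those of Olfr418 at -0.93 (SE 0.69) and Olfr429 at 0.86 (SE 0.41, 95% interval -0.02 to 1.74, unadjusted p = 0.0536 and adjusted p = 1 in limma). Olfr429 was enriched in GFP+ cells by 0.61 to 2.38 in vehicle pools and by 1.67 to 3.29 in odor pools, and these ranges overlapped. Its GFP- arrays of odor pools 1 and 2, which had its largest odor differences (2.69 and 3.29), were at or below background. So was that of vehicle pool 1. The next smallest p-values belonged to Olfr1408 at -0.52, Olfr420 at 0.39, Olfr419 at -0.61 and Olfr417 at -0.57. Those of Olfr419 and Olfr417 became 0.06 without vehicle pool 1.

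Within GFP+ cells the 4 smallest p-values belonged to Olfr420 at 0.64 (95% interval -0.06 to 1.33), Olfr430 at 0.65, Olfr1416 at 0.57 and Olfr418 at -0.63. Olfr420 had GFP+ signals of 4.47 to 5.50 in vehicle and 4.85 to 6.24 in odor pools, near background. Within GFP- cells they belonged to Olfr1411 at 0.49, Olfr1410 at 0.42, Olfr433 at -0.40 and Olfr432 at 0.38. The median difference over the 25 receptors was 0.03 for enrichment, 0.19 in GFP+ and 0.25 in GFP- cells. Over all probe sets it was 0.01, 0.03 and 0.02, and over the other odorant receptors -0.13, -0.06 and 0.12.

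In the fits without a block, all 25 intervals included 0 in each of the 3 comparisons, and they reached a median of 1.13, 1.17 and 1.28 to either side of the estimate. For enrichment 21 of 25 lay within 4-fold in both directions, and 23 and 21 did so within GFP+ and GFP- cells. Within 2-fold lay 3, 6 and 3. A 4-fold change thus lay outside the interval for most receptors, and a 2-fold change in at least 1 direction lay inside it. Same-numbered GFP+ arrays deviated together, and with the replicate number as a block the GFP+ intervals were narrower (median 0.53 to either side), 19 of 25 lying within 2-fold and 20 including 0. The 5 that did not include 0 were those of Olfr430, Olfr429, Olfr420, Olfr1416 and Olfr418, with unadjusted p from 0.0037 to 0.0411 and an adjusted p of 0.993 each in limma. Of all 22206 probe sets 820 had an unadjusted p under 0.05 in that blocked limma fit, and 0 passed after adjustment. The strongly sorted receptors gave 0.23 (95% interval -1.07 to 1.54) for Olfr1406, 0.11 (-1.81 to 2.02) for Olfr231 and -0.33 (-1.55 to 0.89) for Olfr424 in the enrichment comparison.

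**Figure D5:**
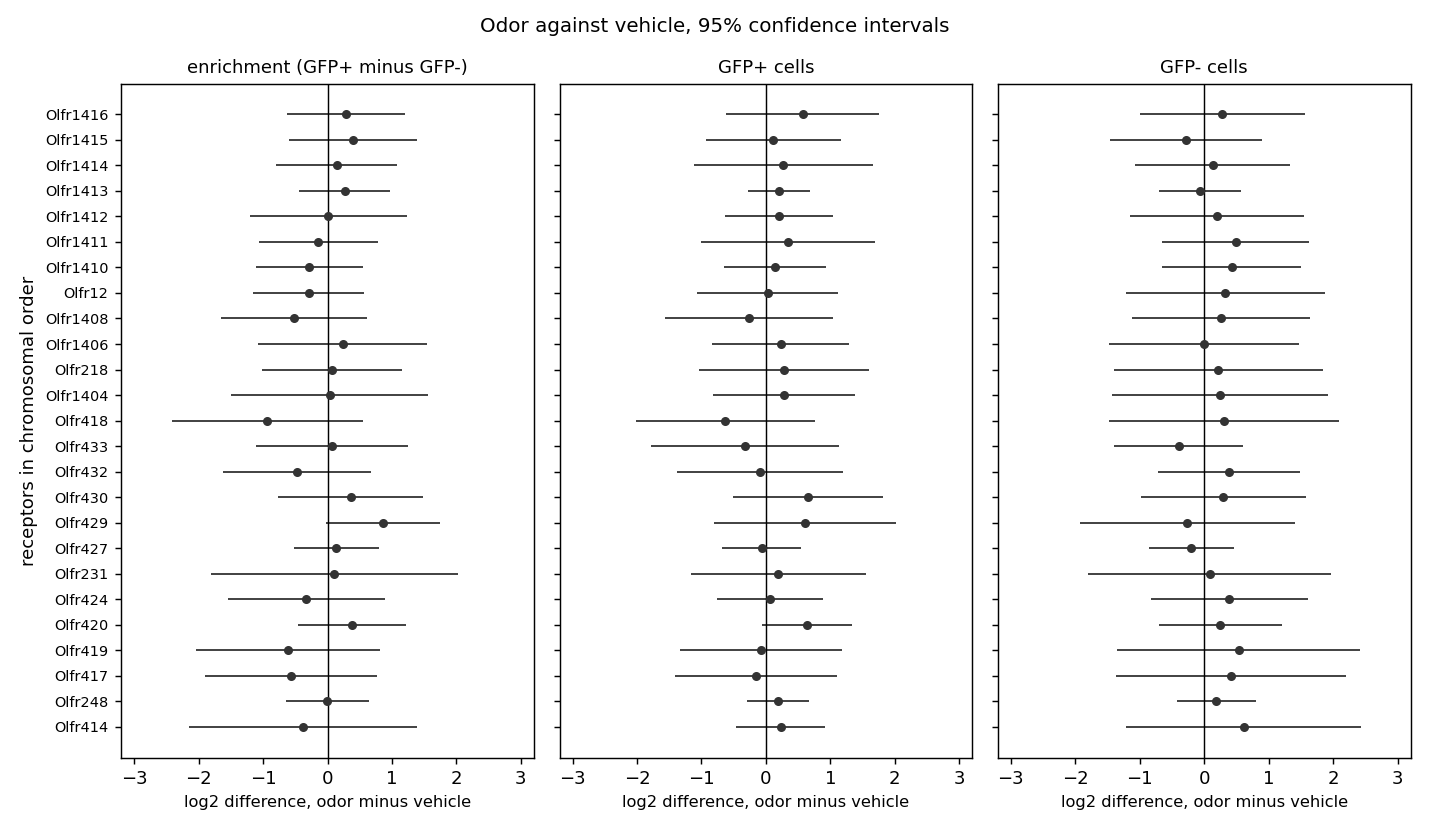
Odor minus vehicle log2 difference of each chromosome 1 receptor in GFP+ enrichment, in GFP+ cells and in GFP- cells, with 95% confidence intervals (5 odor and 5 vehicle pools). In these fits without a block every interval crosses 0, and the differences lie between -0.93 and 0.86.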

How the data were processed

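The 20 samples (10 pools of 3 mice, each sorted into GFP+ and GFP- cells) were hybridised to Clariom S arrays and processed with Affymetrix Expression Console, per the submitters' processing notes. Its version, normalization and summarization were not given in the sources used here. Deposited log2 signals, as their range shows, were used without further normalization. Of 28846 rows 6640 controls were left out and 22206 gene probe sets kept with no filter. Of these 19572 had 1 symbol in the probe annotation, 0 several and 2634 none. All 25 members matched RefSeq (GRCm38.p6) by Entrez ID with the same symbol. That table gave family names and order. Upstream windows existed for 24. The file holds no detection calls, so background is the median of 23 control rows, and signals of different probe sets were not ranked as amounts of RNA. Whether probe sets of closely related receptors share signal was not tested. Folds given as at least a value concern group means and leave out the spread between pools. Precision is limited by the 5 arrays per group.

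GFP+ minus GFP- differences within pools, whose shared mice the labels give, entered 1 limma fit (version 3.58.1, R 4.3.3; lmFit, eBayes) for both sorts and the odor effect on enrichment. Odor and vehicle were compared within each fraction on 10 arrays. P-values were adjusted by Benjamini-Hochberg over 22206 probe sets at 0.05, and adjusted p-values given beside alternatives come from the same test. The code was tested on simulated data.

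Odor and vehicle share replicate numbers. Deviations of same-numbered GFP+ arrays correlated at 0.25, 0.52, 0.35, 0.16 and 0.86, all over the limit of 0.1, and so were taken as paired. In GFP- cells they were 0.14, -0.38, 0.28, 0.20 and 0.84 and were not. Both fractions come from the same pools, so these values do not settle whether odor and vehicle pools were paired. The comparison within GFP+ cells is given without and with the block.

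Members, gene lists and tests were chosen with earlier results of these data known. Named receptors were the 8 most changed of those past the threshold per direction and sort, those whose calls differed between sorts, the brightest 5, and those with the smallest p for the odor (6 for enrichment, 4 per fraction). The remaining receptors are given so that each is accounted for. A part of the rule that needs protein sequences was not used. Alternatives were quantile normalization, centring, leaving out the dimmest 25%, an intensity trend, a term for replicate 5, leaving out both pools numbered 5 or each pool in turn, and the block.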

Additional observations from a re-analysis of the deposited data

Results flagged for a closer look

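Among 150 groups of 5 values (25 receptors in 4 groups of arrays and 2 sets of pool differences), 8 held a value far from the other 4, which is 5.33%, where chance flags about 1 in 20. Of these, 5 were the highest signal of a group and came from the brighter arrays of replicate 5. They were Olfr1414 in vehicle GFP+ cells at 8.99 (others 6.33 to 6.96), Olfr12 in odor GFP+ cells at 9.55 (others 7.32 to 7.88) and Olfr1408 in vehicle GFP- cells at 11.64 (others 8.75 to 9.49). The others were Olfr218 in odor GFP- cells at 9.99 (others 6.88 to 7.50) and Olfr430 in odor GFP+ cells at 12.5 (others 10.15 to 10.62). The remaining 3 came from other pools. Olfr1410 in vehicle GFP+ cells stood at 13.06 in replicate 4 (others 11.28 to 11.66), and the GFP- array of that pool was also its highest, so the difference within the pool was 1.71 and inside the range of the others. Olfr427 had a difference of 1.19 in odor pool 3 (others 0.14 to 0.44), and Olfr248 a signal of 2.97 in vehicle GFP- replicate 3 (others 3.71 to 3.81), both at or below background.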

How the results depend on the processing

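The 3 lower receptors passed in both sorts under every alternative except the fit with no replicate block, in which the pool is ignored: it kept 2 of 3 in vehicle pools (Olfr417 was lost) and all 3 in odor pools. That fit left 3 higher receptors in each sort, instead of 8 and 6. Counts of higher receptors were 9 and 7 after quantile normalization, 9 and 9 after centring, and 7 and 4 without both pools numbered 5. They were 8 and 6 with the dimmest probe sets left out (Olfr427 and Olfr248 among them), with the intensity trend and with a term for replicate 5. Leaving out 1 pool in turn gave 6 to 9 higher in vehicle pools and 4 to 9 in odor pools, with 3 lower in each. The lowest counts were without vehicle pool 3 (6), and without odor pool 1 or 3 (4 each), and the highest without vehicle pool 1. Olfr1410 and Olfr424 were called higher in both sorts under all of these, Olfr432 in vehicle and Olfr430 in odor pools. Centring shifted the median change over probe sets from 0.09 to 0.33 in vehicle and from 0.08 to 0.29 in odor pools. All odor comparisons stayed at 0 receptors, replicate block included, under which 5 receptors in GFP+ cells had an unadjusted p under 0.05 and 820 of all probe sets did. The replicate block changed no call.

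Signs that turned were all of uncalled receptors. In vehicle pools, leaving out 1 pool gave -0.052 to 0.575 for Olfr1416, -0.067 to 0.282 for Olfr1415, -0.093 to 0.475 for Olfr1414, -0.118 to 0.277 for Olfr420, -0.178 to 0.861 for Olfr419 and -0.464 to 0.496 for Olfr414. The lowest values came without pool 1 (Olfr1416, Olfr419, Olfr414), pool 2 (Olfr420) or pool 5, and without both pools numbered 5 Olfr1415 was also at -0.067 and Olfr1414 at -0.093. In odor pools Olfr1408 was at -0.024 after quantile normalization and at -0.121 to 0.286 with 1 pool left out, and Olfr419 at 0.088 after centring. For the odor effect on enrichment the ranges were -0.984 to 0.056 for Olfr419 and -0.92 to 0.056 for Olfr417, positive without vehicle pool 1. The cause was not tested. Signal over background limits Olfr427, Olfr248 and Olfr420, the GFP+ values of Olfr1406 and Olfr231 and the GFP- values of Olfr432 and Olfr433. In odor pools it also limits part of the GFP+ values of Olfr432 and Olfr433.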
